A study of Mus musculus with 4 samples.

Results

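A total of 3785 regions of the mouse genome carried an H3K27ac peak in all 4 sorted cell populations of the study and lay outside the promoters of protein-coding genes. Regions were made by joining the peaks that share a start and an end in each of the 4 lists and merging the overlapping intervals of the 4 lists on chromosomes 1 to 19, X and Y, which gave 62558 regions. Of these, 42651 were distal, that is, they did not touch the promoter window of a protein-coding transcript in GRCm39, which reaches 2 kb upstream and 500 bp downstream. The members were the distal regions overlapped by an interval of every list, 8.87% of the distal regions (95% exact binomial interval 8.61 to 9.15%). The members were thus chosen by a measured value, the presence of a called peak in each of the 4 libraries, so the strength of the peaks is given here as a description, and shares are set beside the 27154, 8733 and 2979 distal regions found in 1, 2 and 3 lists and beside the 12763 coding promoters found in all 4.

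The libraries came from E14.5 fetuses of a homozygous Col2a1-EGFP reporter line, in which an EGFP cassette with a minimal β-globin promoter was placed upstream of Col2a1 so that cells expressing this cartilage collagen fluoresce. The fetuses were derived by tetraploid aggregation from 1 male G4 embryonic stem cell line, so all 4 populations share genotype, stage and sex. Cells were sorted into EGFP+ and EGFP- fractions from limbs and from trunk, pooled from several fetuses, and each population has 1 library. No test between populations was made, and limb and trunk libraries also carry different sequencing lanes in their labels, so that the effect of a lane and of a tissue cannot be told apart. The fractions are mixtures of cells, in which fewer marked cells and less mark per cell cannot be told apart.

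H3K27ac is the acetylation of lysine 27 of histone H3, a mark of nucleosomes beside active promoters and active enhancers. Promoters, often CpG-rich and bound by factors such as ETS proteins, NRF1 and Sp1, tend to be active in many cell types, whereas enhancers are distal and tend to be active in few. CTCF binds insulators and the borders of chromatin loops in most cells, and the starts of long noncoding RNAs (lncRNAs) and of small RNA genes are promoters that a list of protein-coding start sites does not hold.

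The intervals per list numbered 40899 in limb EGFP+, 34360 in limb EGFP-, 36231 in trunk EGFP+ and 30716 in trunk EGFP- cells. Each peak carries a −log10 p, by which the peak caller compared the reads at the summit with the local background of the same library, and the fold of these reads over that background. The number of reads at the summit was recovered from the pair. Promoter peaks were found at 8 of 8 chondrocyte markers in both EGFP+ lists, at 4 in limb EGFP- and at 3 in trunk EGFP- cells. The 3 epithelial, 3 endothelial and 3 blood cell markers had a promoter peak in none of the lists, and of the 4 muscle markers only Myog had one, in limb EGFP+ cells. Of 4 connective tissue markers 2 had one in each list, and of 3 neural markers 1 had one in limb EGFP+ and 1 in trunk EGFP- cells.

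Sequences of 8 members from the GRCm39 reference are shown on the forward strand, 151 bases each, 1 for each kind of region that the results turn on. In the noncoding promoter, the Irf2 member and the EGFP- leading member the capitals mark the ETS consensus CCGGAAG, and in the EGFP+ leading member the AP-1 consensus TGANTCA. In the flank and the CTCF member they mark the CTCF core CCANNAGNNGGC, in the CpG-rich member every CG, and in the high-copy member the bases of 16-mers that occur at least 50 times in the genome. Within 250 bp of its summit 19.96% of the 16-mers are of this kind, against 21.0% over the genome. Its name thus refers to the marked bases, and whether the other bases belong to a repeat was not tested. Each consensus was read on both strands. Over all members leading in EGFP+ and in EGFP- cells, AP-1 was present in 12.1% and 13.8%, and ETS in 7.26% and 8.70%. The marks in the leading members are thus examples and not traits of a direction.
Noncoding promoter of A930029G22Rik and C030034I22Rik, chr17:69724282-69724432: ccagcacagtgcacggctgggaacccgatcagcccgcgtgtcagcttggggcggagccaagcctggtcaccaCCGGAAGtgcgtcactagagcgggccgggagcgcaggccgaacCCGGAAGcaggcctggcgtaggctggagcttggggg
Flank of the Stard10 promoter, chr7:100959928-100960078: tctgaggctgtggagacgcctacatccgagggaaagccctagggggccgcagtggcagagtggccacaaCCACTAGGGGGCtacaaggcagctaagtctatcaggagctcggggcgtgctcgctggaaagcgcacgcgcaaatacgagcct
CTCF member upstream of Vcf2, chrX:149260948-149261098: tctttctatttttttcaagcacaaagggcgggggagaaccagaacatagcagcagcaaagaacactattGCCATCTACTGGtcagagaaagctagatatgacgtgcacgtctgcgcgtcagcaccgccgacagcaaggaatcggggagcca
CpG-rich member upstream of Mpzl1, chr1:165470004-165470154: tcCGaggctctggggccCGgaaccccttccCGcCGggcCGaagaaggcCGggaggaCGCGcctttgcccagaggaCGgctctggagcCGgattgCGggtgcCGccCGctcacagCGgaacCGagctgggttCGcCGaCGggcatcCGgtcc
Remainder member upstream of Irf2, chr8:47139998-47140148: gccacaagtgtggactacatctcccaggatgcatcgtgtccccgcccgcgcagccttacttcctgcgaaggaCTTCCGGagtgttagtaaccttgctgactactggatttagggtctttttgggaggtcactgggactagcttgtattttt
High-copy member in Gm75300, chr2:98492930-98493080: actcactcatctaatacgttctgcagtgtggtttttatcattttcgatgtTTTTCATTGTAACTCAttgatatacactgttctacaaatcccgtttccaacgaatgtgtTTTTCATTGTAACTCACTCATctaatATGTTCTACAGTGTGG
EGFP+ leading member in an intron of Stk4, chr2:163991737-163991887: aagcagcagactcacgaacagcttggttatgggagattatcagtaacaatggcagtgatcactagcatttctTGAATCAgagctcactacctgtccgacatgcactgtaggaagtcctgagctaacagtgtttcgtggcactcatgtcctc
EGFP- leading member at Gm50222, chr17:31904987-31905137: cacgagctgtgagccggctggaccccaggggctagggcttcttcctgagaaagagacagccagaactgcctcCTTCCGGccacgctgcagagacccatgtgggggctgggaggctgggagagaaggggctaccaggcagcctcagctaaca

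The members fell mainly into noncoding promoters and a remainder with no class. Classes were assigned in a fixed order. The noncoding promoter class came first and held 1599 members (42.2%, interval 40.7 to 43.8%), which overlapped a window of the same reach at the start of a gene that is not protein-coding. This class rests on position alone. Whether its regions act as promoters was not tested. Another 497 members (13.1%, 12.1 to 14.2%) lay within 5 kb of a coding start site, beside the promoter window. Of those left, 102 (2.69%) held the CTCF core, 39 (1.03%) were CpG-rich, 5 (0.132%) consisted mostly of high-copy sequence and 1543 (40.8%, 39.2 to 42.4%) had none of these features. Among distal regions found in 1 to 3 lists the remainder was 74.6%, noncoding promoters were 14.8% and coding promoter flanks 7.29%. The share without a class fell from each number of lists to the next, and the step from 3 to 4 lists was the largest, as the plot of classes shows. These intervals cover counting error only.

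**Figure D1:**
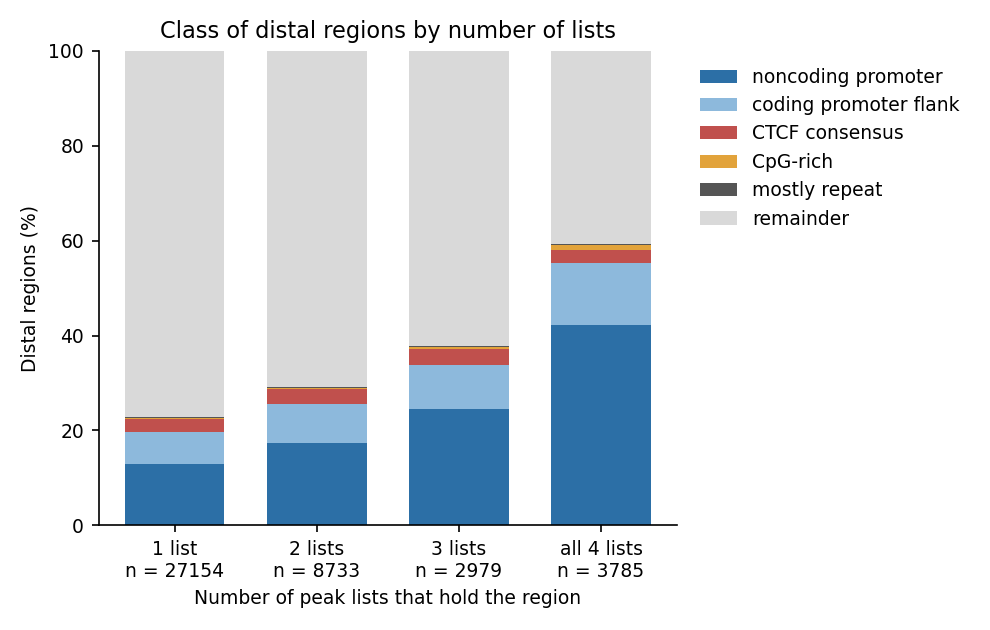
Share of distal regions (%, vertical axis) in each of 6 classes, by the number of peak lists that hold the region (horizontal axis, with the number of regions). Noncoding promoters take 42.2% of the regions in all 4 lists and the remainder 40.8%, against 14.8% and 74.6% over the regions in 1 to 3 lists.

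Noncoding promoter windows were met by 42.2% of the members, against 17.2% of all distal regions. The windows cover 6.04% of these chromosomes, with 148279 start sites of 56495 noncoding genes, 32884 of them lncRNA genes. Coding promoters marked in all 4 lists met such windows at 42.3%, close to the members' share. Because wide regions meet more windows, the strongest summit of each region was also placed: it lay in a noncoding window in 1454 members (38.4%, 36.9 to 39.99%), against 15.8% of all distal regions. Among regions of 800 to 1200 bp the summit lay in a noncoding window in 37.7% of members and in 15.9% of the distal regions in 1 to 3 lists.

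The summits of members lay close to a noncoding start site more often than those of other distal regions, as the plot of distances shows. Their median distance to such a start was 3.59 kb, against 12.2 kb in distal regions of 1 to 3 lists. In 351 members (9.27%) the strongest summit lay within 100 bp of a noncoding start, in 526 (13.9%) between 100 and 300 bp and in 531 (14.03%) between 300 bp and 1 kb. The same shares in distal regions of 1 to 3 lists were 2.37%, 3.57% and 6.29%. From 3 kb on, the members' shares were lower than those of the other distal regions.

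**Figure D2:**
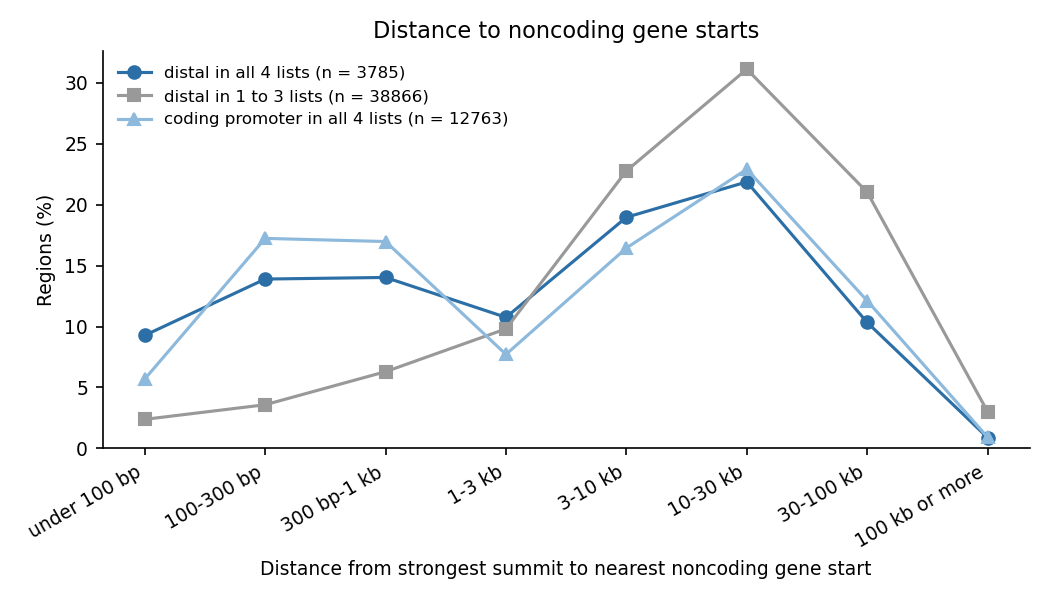
Share of regions (%, vertical axis) by distance from the strongest summit to the nearest start of a noncoding gene (horizontal axis, in steps of unequal width). Members (dark blue circles) and coding promoters in all 4 lists (light blue triangles) have higher shares below 1 kb than distal regions of 1 to 3 lists (grey squares).

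By type, 1524 members (40.3%) met the window of a lncRNA gene, 124 (3.28%) that of a small RNA gene and 61 (1.61%) that of a pseudogene. A further measure, the start of a noncoding transcript of a protein-coding gene, was met by 469 members (12.4%, 11.4 to 13.5%), which are alternative starts outside the windows of the coding transcripts. With the start sites of all transcripts of coding genes counted as promoters, 3316 members were left and 42.1% of them met a noncoding window.

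Host genes of small nucleolar RNAs, which guide the modification of ribosomal RNA and are needed by every growing cell, were frequent among the members. Of the 17 genes named Snhg with a number, 9 had a member in the promoter window and 6 lay in the promoter region of a coding gene, which the rule leaves out. Only Snhg11 and Snhg14 had no region of any kind in the window. Of all lncRNA genes, 4.97% had a member in the window. This family was chosen after values were seen.

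The Snhg12 member, at chr4:132035642-132036909, met the windows of Snhg12 and of the snoRNA genes Snora16a, Snora44, Snora61 and Snord99. It had a peak −log10 p of 69.4 in limb EGFP+, 74.9 in limb EGFP-, 53.3 in trunk EGFP+ and 48.1 in trunk EGFP- cells, where the reads at the summit were 106, 114, 88 and 84. The Snhg7 member, at chr2:26528690-26530319, had a −log10 p of 72.0, 60.9, 68.6 and 53.4 in the same order. The Snhg5 member, at chr9:88403953-88404991, had 89.6, 64.2, 59.5 and 47.0. All 3 were above the 97th percentile of every list. Snhg15 had a member 0.067 kb from its start with a −log10 p of 70.9, 48.3, 52.5 and 38.7.

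Host genes of microRNAs were divided between members and no region. Among 19 annotated genes named Mir with the ending hg, 8 had a member, 8 had no region, and Mir9-2hg, Mir155hg and Mirc35hg had a distal region of fewer lists. Of all 32884 lncRNA genes, 4.97% had a member and 23556 had no region, so no tissue pattern is read from a missing region. The microRNA host family too was chosen after values were seen. The members were at Mir17hg, Mir22hg, Mir99ahg, Mir100hg, Mir181a-1hg, Mir670hg and Mir503hg, which is annotated as a pair of genes. The hosts with no region included those of the neuronal miR-124 (Mir124a-1hg, Mir124-2hg), of the muscle miR-1 and miR-133 (Mir1a-1hg, Mir133a-1hg), of the blood cell miR-142 and miR-223 (Mir142hg, Mir223hg) and of the epithelial miR-205 (Mir205hg). The Mir17hg member, which precedes the miR-17 cluster known from proliferating cells, had a −log10 p of 27.6, 22.8, 21.5 and 23.0 in limb EGFP+, limb EGFP-, trunk EGFP+ and trunk EGFP- cells. The Mir22hg member had 44.7, 29.4, 25.6 and 21.7.

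Single noncoding RNAs of general function also had members. At Rn7sk, the 7SK RNA that holds the elongation factor P-TEFb inactive, the member at chr9:78082940-78084397 had a −log10 p of 53.7, 61.8, 48.6 and 47.4. At Malat1, an abundant nuclear RNA, the strongest member lay 0.432 kb from a start with 38.4, 32.8, 23.7 and 24.7. At Norad, which binds Pumilio proteins, the member had 20.3, 16.9, 25.2 and 20.3. Over a list of 33 noncoding RNA genes, 27 had a member within 100 kb, where 32.5% of all coding genes did. Of the 345 distal regions there, 22.3% were members, against 8.87% of all distal regions. Such members need not lie at the gene. H19, Rmrp and Snhg3 had no member in their own promoter window, and H19 had no promoter peak in any list. Gas5, Miat, Rpph1, Snhg1, Snhg14 and Tug1 had no member within 100 kb. Of these, Gas5, Rpph1, Snhg1 and Tug1 had a promoter peak in all 4 lists, with regions in coding promoter windows, which the rule leaves out. At Gas5 the −log10 p was 49.4, 35.3, 34.2 and 31.2. Tug1 is annotated as protein-coding. Miat had no promoter peak in trunk EGFP+ cells and Snhg14 had none in any list.

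Members also lay beside coding promoters. Within 5 kb of a coding start site were 955 members (25.2%, 23.9 to 26.6%), against 10.8% of all distal regions. The side was uneven. In 613 members (16.2%) the summit was less than 2 kb downstream of the nearest coding start, against 3.81% of the distal regions in 1 to 3 lists. By the rule none could lie less than 2 kb upstream. Between 2 and 5 kb, 162 members were downstream and 135 upstream. A coding promoter marked in all 4 lists lay within 5 kb of 14.7% of members and of 3.01% of the distal regions in 1 to 3 lists, and the median distance to such a promoter was 37.4 kb and 83.8 kb.

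The strongest flank members were near Stard10, in Top1 and in Mier3. The member 4.12 kb upstream of Stard10, a lipid transfer protein, had a −log10 p of 43.7, 54.6, 56.4 and 53.7 in limb EGFP+, limb EGFP-, trunk EGFP+ and trunk EGFP- cells, and held both a CTCF core and an NRF1 consensus. The member 0.973 kb inside Top1, the gene of DNA topoisomerase I, had 50.1, 45.0, 43.6 and 56.2, and the one 1.09 kb inside Mier3 had 42.8, 38.2, 43.1 and 38.5. Of the 3, only Mier3 had both EGFP+ values above both EGFP- values, and there the limb EGFP+ percentile of 91.0 was below the limb EGFP- percentile of 91.8.

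Base composition placed the members between other distal regions and coding promoters. The median GC content of the window of 250 bp on each side of the strongest summit was 53.3% in members, 47.7% in distal regions of 1 to 3 lists and 58.7% in coding promoters of all 4. The ratio of observed to expected CpG had medians of 0.389, 0.225 and 0.691. With a GC content of at least 55% and a ratio of at least 0.65, 511 members (13.5%, 12.4 to 14.6%) were CpG-rich, against 2.29% of all distal regions and 47.0% of the coding promoters. Of the 1599 members in the noncoding promoter class, 308 (19.3%) were CpG-rich. With a coding window of 5 kb on each side, 6.996% of the members then left were CpG-rich, against 0.455% of the regions in 1 to 3 lists, while 40.3% still met a noncoding window.

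The 39 members classed as CpG-rich had a median −log10 p of 19.7, 13.2, 17.1 and 14.2 in the 4 lists. By the order of classes they leave out members in noncoding windows, within 5 kb of a coding start or with the CTCF core. The member in an exon of Msra, a methionine sulfoxide reductase, at chr14:64677396-64678933, had a −log10 p of 59.2, 47.1, 48.9 and 37.0. The one 7.94 kb upstream of Mpzl1, at chr1:165469300-165470811, had 52.2, 32.8, 35.9 and 48.2, and its printed 151 bases hold 19 CGs. The next, at chr17:40158222-40159683, lay in Rn18s-rs5, a gene related to 18S ribosomal RNA, where 136, 107, 112 and 114 reads at the summit gave a −log10 p of only 32.5, 33.5, 30.3 and 30.2. That sequence belongs to a multicopy family, so the reads there may come from other copies.

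Consensus sequences of promoter factors were more frequent in members than in other distal regions, and less frequent than in coding promoters. The ETS consensus CCGGAAG was present in 305 members (8.06%, 7.21 to 8.97%), against 3.44% of all distal regions and 16.3% of coding promoters. In the noncoding promoter class it was present in 162 of 1599 members (10.1%). The NRF1 consensus GCGCNTGCGC was present in 78 members (2.06%), against 0.455% and 6.59%. The GC box GGGGCGGGG, bound by Sp1, was present in 288 members (7.61%), against 2.63% and 14.7%. In windows of 50 to 60% GC alone, the shares in members and in distal regions of 1 to 3 lists were 9.09% and 4.56% for ETS and 2.58% and 0.533% for NRF1. In the same windows 10.2% of members and 1.02% of the other distal regions were CpG-rich, and the ETS and NRF1 letters contain CpG, so the windows were alike in GC content but not in CpG.

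The AP-1, SOX and homeobox consensus sequences, of factors known from cell-type enhancers, were less frequent in members. The AP-1 consensus TGANTCA was present in 443 members (11.7%, 10.7 to 12.8%), against 14.9% of all distal regions and 7.35% of coding promoters. The SOX consensus AACAAAG, read by Sox9 in cartilage among others, was present in 442 members (11.7%), against 13.7% and 7.65%, and the homeobox core TAATTA in 231 (6.10%, 5.36 to 6.91%), against 10.2% and 4.22%. In windows of 50 to 60% GC, SOX was present in 10.3% of members and 10.5% of the distal regions in 1 to 3 lists, and in windows of 40 to 50% GC in 16.1% and 15.3%. TAATTA was present in 4.78% and 5.01% at 50 to 60% GC, in 10.3% and 11.99% at 40 to 50%, and in 14.7% of 68 members and 22.5% of the others at 30 to 40%. AP-1 in the same windows was present in 12.1% and 13.8%. MEF2 (CTANNNNTAG), RUNX (TGTGGTTT) and TEAD (ACATTCC) were present in 5.31%, 3.57% and 8.45% of members, against 7.02%, 4.68% and 9.32% of all distal regions, and YY1 (AAGATGGC) in 2.56% against 2.58%.

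**Figure D3:**
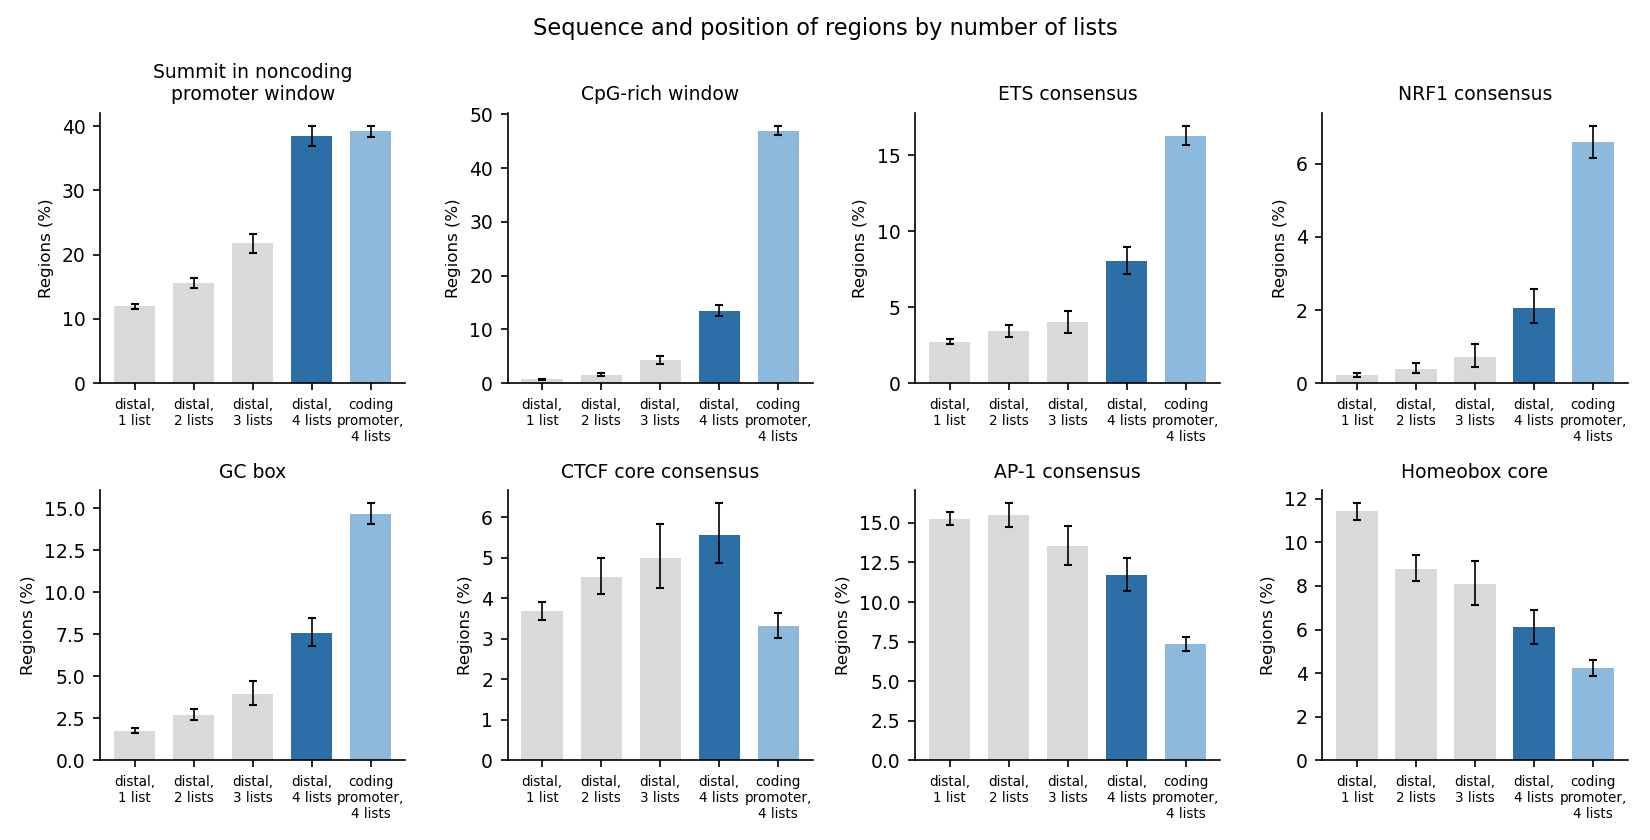
Share of regions (%, vertical axes, starting at 0) with each of 8 features, for distal regions in 1, 2, 3 and 4 lists and coding promoters in all 4. Bars are shares and error bars are 95% exact binomial intervals. Members (dark blue) stand between other distal regions and promoters for CpG-rich windows, ETS, NRF1 and the GC box, and the CTCF core is present in 5.57% of them.

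The share of CTCF-like sites depended on the letters and the window. The CTCF core CCANNAGNNGGC, each match of which is also a match of the shorter core CCNNNAGNNGGC, was present within 250 bp of the summit in 211 members (5.57%, 4.87 to 6.35%), against 4.12% of all distal regions and 3.32% of coding promoters. With 500 bp on each side it was present in 11.5% of members and 7.96% of the distal regions in 1 to 3 lists, and the shorter core within 250 bp in 15.2% and 9.24%. In windows of 50 to 60% GC the shares in members and in distal regions of 1 to 3 lists were 5.74% and 5.62%. At 40 to 50% GC they were 5.33% and 3.35%, and at 30 to 40% 2.94% and 1.65%. At 60 to 70% they were 5.61% and 6.07%. The matches were not centred on the summits: the median distance was 166 bp, 13.3% of the matches lay within 50 bp and 59.7% beyond 150 bp. No match says only that these letters are not in the window.

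The strongest members classed by the CTCF core were upstream of Vcf2 and of Rnase12 and downstream of the start of the histone gene H2bc18. The Vcf2 member, at chrX:149260893-149261651, had a −log10 p of 45.2, 39.99, 33.2 and 34.5 in limb EGFP+, limb EGFP-, trunk EGFP+ and trunk EGFP- cells, with 56, 55, 40 and 43 reads at the summit. The Rnase12 member, at chr14:51300351-51301340, had 45.9, 29.6, 28.8 and 33.8, and the H2bc18 member 36.2, 32.99, 25.3 and 30.9. The median over the 102 members of the class was 12.04, 10.8, 10.4 and 9.41, below the noncoding promoters at 19.04, 15.4, 14.3 and 12.7.

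High-copy sequence was rare among the members, but 2 of the 3 highest members held at least 20% of it, against 85 of all 3785. The reference holds no repeat annotation, so repeats were measured as the share of 16-mers in the window that occur at least 50 times in the genome, with mostly repeat meaning at least 50% of them. Of all 16-mers of the genome, 21.0% were of this kind. The median over members was 1.23%, and 6 members (0.159%) were mostly repeat, against 0.272% of all distal regions. Reads of low mapping quality had been removed by the authors, which takes out reads that map equally well to several copies in the reference. Both this filter and the 16-mers see only copies in the reference. The Rn18s-rs5 member, of a multicopy family, held 0% high-copy 16-mers.

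The 3 members with the highest value in their weakest list had a GC content of 34.3 to 36.1%, and their values went with the tissue rather than the fraction. The member at chr2:98492565-98493373, in the lncRNA gene Gm75300 and 1195 kb from the nearest coding start, had a −log10 p of 104 in limb EGFP+, 102 in limb EGFP-, 147 in trunk EGFP+ and 143 in trunk EGFP- cells. It held 19.96% high-copy 16-mers. Its local background was 37.5, 37.8, 28.2 and 30.1 reads, where the medians over members were 5.52, 5.24, 5.6 and 5.54. Its neighbour at chr2:98496492-98497752, with 57.6% high-copy 16-mers, had 72.4, 75.8, 132 and 138. The member at chr9:35216378-35216946, with 42.4% high-copy 16-mers, had the reverse order, 183, 195, 96.2 and 76.7. Among the members classed as mostly repeat, the one at chr9:3025349-3025719 had 63.1, 62.7, 20.7 and 29.02, again higher in both limb lists. The next, at chrY:258985-259452, had 34.6, 26.7, 7.77 and 18.2, and the one at chrY:90808998-90810020, in Erdr1y, had 7.98, 7.32, 9.49 and 8.91. Here too, the lane and the tissue cannot be told apart.

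After these, 7 members complete the 10 highest, 5 of them noncoding promoters. The member at chr8:47139647-47140649, 52.1 kb upstream of Irf2, an interferon regulatory factor, had a −log10 p of 88.2, 111, 62.8 and 78.1 with 101, 123, 73 and 86 reads, and lay in the lncRNA gene Gm16675. The member at chr5:115627285-115628406, upstream of Sirt4 and at the starts of the snRNA genes Gm24265 and Gm24407, had 74.1, 90.3, 58.0 and 63.6. The member at chr17:69723630-69725033, in the lncRNA genes A930029G22Rik and C030034I22Rik, had 64.9, 64.9, 57.7 and 73.8, and its summit lay 8 bp from a noncoding start.

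Of the 7, only the member at chr2:32027138-32027994, 13.3 kb upstream of Prrc2b, was intergenic, with 75.5, 72.6, 56.3 and 61.5. The member upstream of Ccnl1, which encodes a cyclin of splicing, had 60.7, 85.4, 54.8 and 54.9, and the one at Gm33258 had 88.3, 50.7, 62.5 and 50.3. All 10 were above the 96th percentile of every list.

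The 1543 members without a class were mainly intronic or intergenic. Their strongest summit lay in an intron of a coding gene in 704 (45.6%), between genes in 487 (31.6%), in a noncoding gene in 252 (16.3%) and in a coding exon in 100 (6.48%). They were weaker than the noncoding promoters, with a median −log10 p of 12.1 in limb EGFP+, 10.3 in limb EGFP-, 10.0 in trunk EGFP+ and 8.77 in trunk EGFP- cells. Their median distance to a coding start was 29.6 kb, against 44.0 kb for the 28989 regions without a class in 1 to 3 lists.

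The sequence of this remainder was compared with that of regions without a class in fewer lists. The ETS consensus was present in 76 (4.93%, 3.90 to 6.13%) against 2.55%, the NRF1 consensus in 20 (1.296%) against 0.186%, and the GC box in 78 (5.06%) against 1.57%. The homeobox core was present in 6.42% (5.24 to 7.76%) against 11.3%. AP-1, at 14.3% (12.6 to 16.2%) against 15.7%, and SOX, at 13.4% (11.7 to 15.1%) against 14.2%, had intervals that include the second share. The E-box CAGCTG, read by many helix-loop-helix factors, was present in 38.8% (36.3 to 41.2%) against 30.7%. The median GC content was 51.3% against 46.9%.

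Over all members, the peak −log10 p had medians of 15.2 in limb EGFP+, 12.7 in limb EGFP-, 11.97 in trunk EGFP+ and 10.5 in trunk EGFP- cells, as the plot of peak strength shows. The reads at the summit had medians of 34, 30, 30 and 27 and ranged from 7 to 257 over the 4 lists. Their fold over the local background had medians of 4.90, 4.59, 4.39 and 4.14. Distal regions of 1 to 3 lists, where called, had medians of 6.76, 6.10, 6.18 and 5.95, and coding promoters of all 4 lists 30.7, 22.8, 23.0 and 21.1. The ranking of the 3 kinds of region was the same in each list. Being in all 4 lists chooses strong peaks, so this order follows in part from the rule.

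**Figure D4:**
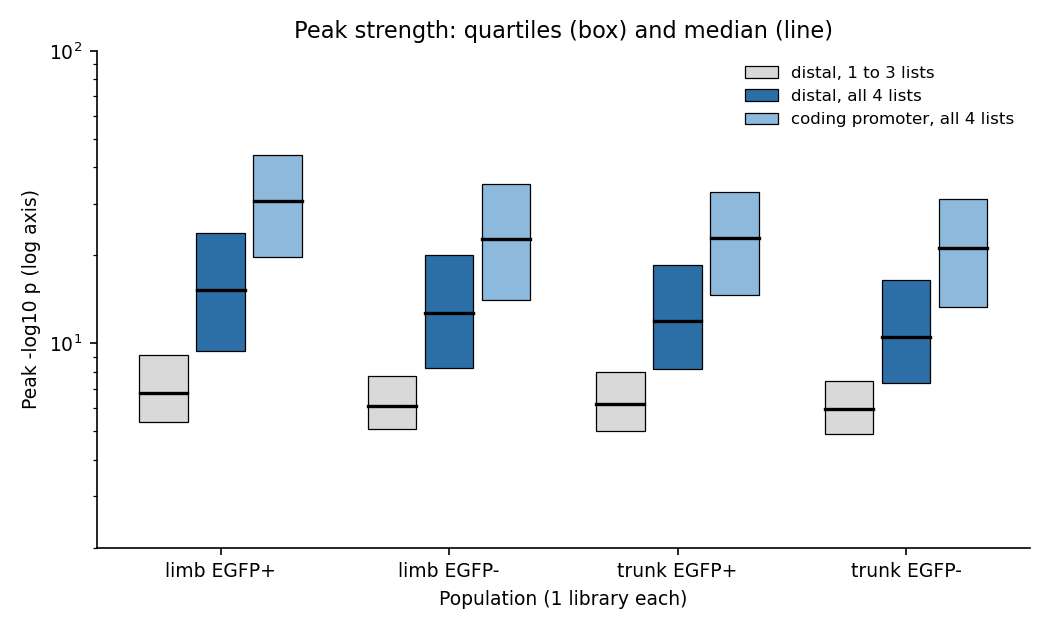
Peak −log10 p (vertical log axis) in each of the 4 populations (1 library each) for distal regions in 1 to 3 lists, members and coding promoters in all 4. Boxes span the quartiles and lines are medians, which for members are 15.2, 12.7, 11.97 and 10.5.

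The members were wide, with a median of 845 bp (quartiles 623 and 1151 bp), against 294 bp in distal regions of 1 to 3 lists and 847 bp in coding promoters. Width grows when 4 lists are merged, so no difference is read from it. Their summits lay apart: the first and the last of the 4 summits of a member were a median of 182 bp from each other, against 88 bp in coding promoters, and pairs of lists had medians of 62 to 70 bp. Across members, the −log10 p of limb EGFP+ and trunk EGFP+ had a Spearman correlation of 0.73, and limb EGFP- and trunk EGFP- of 0.69. Limb EGFP+ and limb EGFP- had 0.60 and the trunk fractions 0.59. These are descriptions over 3785 regions that share libraries.

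The values just inside and outside the criterion were as follows. The members with the lowest weakest value were at chr8:104541035-104541745, with a −log10 p of 3.33, 8.77, 3.67 and 7.30, at chr7:138814359-138815000, with 3.36, 4.76, 8.02 and 11.2, and at chr14:57967445-57968195, in Lats2, with 3.36, 4.07, 3.77 and 7.23. The regions of 3 lists with the highest weakest value were at chr8:25858384-25859214, with 23.9, 34.7 and 28.01 and no peak in trunk EGFP- cells, and in Lnpep and Herpud2, each with no peak in limb EGFP- cells. In the other lists the Lnpep region had 36.8, 21.9 and 22.4 and the Herpud2 region 23.4, 19.1 and 21.9. A region missing from a list was thus not always weak in the others.

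Although marked in all 4 populations, members were not equally strong in them. To compare lists of unequal length, each value was turned into its percentile among the intervals of its list. In 1047 members (27.7%, 26.2 to 29.1%) both EGFP+ percentiles were above both EGFP- percentiles, against 28.8% of all 16548 regions in all 4 lists, promoters included. The reverse held in 586 members (15.5%, 14.3 to 16.7%), against 11.9%. Both limb lists were above both trunk lists in 891 members (23.5%), against 23.1%, and the reverse held in 338 (8.93%), against 11.3%. The shares with the EGFP+ order and the limb order thus had intervals that include the share of all regions, while the EGFP- order was more and the trunk order less frequent in members. With 1 library each, these counts describe the libraries. By at least 20 points, 198 of 3785 members had the EGFP+ order, 74 the EGFP- order, 81 the limb order and 22 the trunk order. Of the 12763 coding promoters in all 4 lists, 260, 47, 113 and 25 did. By at least 40 points, 37 members and 23 coding promoters had the EGFP+ order and 5 members and 2 coding promoters the EGFP- order.

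**Figure D5:**
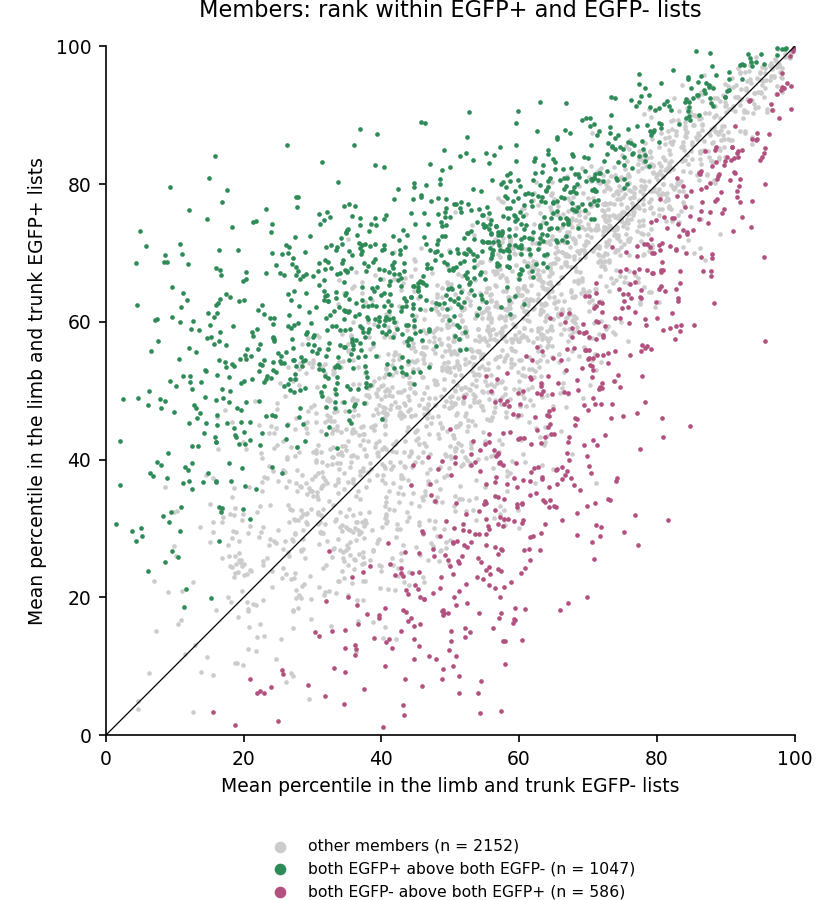
Each point is 1 of 3785 members, with its mean percentile in the limb and trunk EGFP- lists (horizontal axis) and in the limb and trunk EGFP+ lists (vertical axis). Green points (1047) have both EGFP+ percentiles above both EGFP- percentiles, purple points (586) the reverse, and the line marks equal percentiles.

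The members with the widest gap in favour of EGFP+ cells had fewer reads in both EGFP- libraries. The member at chr7:63614683-63615995, 26.7 kb upstream of Klf13, a zinc finger transcription factor, had 45 and 46 reads at the summit in limb and trunk EGFP+ cells and 9 and 10 in limb and trunk EGFP- cells, with a −log10 p of 25.02, 4.23, 24.4 and 5.29 in the usual order of lists. The member at chr17:86175963-86178110, 171 kb from Srbd1, had 45 and 42 reads against 12 and 12. The member in an exon of Tspan32, at the start of its antisense gene Tspan32os, had 72 and 66 against 28 and 24. The members in introns of Eps15l1 and of Stk4, a kinase of the Hippo pathway, had 59 and 53 against 14 and 11, and 74 and 59 against 13 and 12. These were chosen for the gap, which is therefore no finding.

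The members with the widest gap in favour of EGFP- cells lay near Ror2, Mmp19, Cryaa, Actbl2 and Nbea. The member at chr13:53462869-53464435, 23.2 kb upstream of Ror2, a receptor for Wnt5a, had 12 and 14 reads in limb and trunk EGFP+ cells and 43 and 30 in limb and trunk EGFP- cells. The member 11.6 kb upstream of Mmp19, a matrix metalloproteinase, had 13 and 15 against 52 and 40, and the one at Gm50222 near Cryaa had 11 and 11 against 35 and 40. The members near Actbl2 and Nbea had 8 and 8 against 21 and 22, and 7 and 9 against 24 and 21.

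Members with the EGFP+ order and with the EGFP- order met noncoding windows at 39.3% (36.3 to 42.3%) and 41.6% (37.6 to 45.7%). They differed in their distance from coding genes: 28.7% (25.9 to 31.5%) and 18.1% (15.1 to 21.4%) lay within 5 kb of a coding start, and the median distance was 15.3 kb and 21.8 kb. The start of a noncoding transcript of a coding gene was met by 14.1% (12.1 to 16.4%) and 7.85% (5.80 to 10.3%). CpG-rich windows made up 15.95% (13.8 to 18.3%) and 9.04% (6.85 to 11.7%). The cyclic AMP response element TGACGTCA was present in 4 of 1047 (0.382%, 0.104 to 0.975%) and 14 of 586 (2.39%, 1.31 to 3.98%). Over all members the share was 1.40%, and over all distal regions 0.675%. It was the only consensus of those read whose 2 intervals did not overlap. The counts are small, and regions of 1 library are not replicates, so no difference between the fractions is read from them. The SOX consensus was present in 10.2% (8.45 to 12.2%) and 13.7% (10.98 to 16.7%), with intervals that overlap.

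Near cartilage genes, members were a small share of the distal regions. Of 20 cartilage genes, 9 had a member within 100 kb and Sox9, Acan and Col11a1 were among those without, and the 11 members were 4.06% of the 271 distal regions there, against 8.87% of all. Near 19 ubiquitously expressed genes, 13 had a member, and 33 of 139 distal regions (23.7%) were members. Of all coding genes, 32.5% had a member within 100 kb. The connective tissue list had 12 members of 133 distal regions (9.02%), muscle 5 of 64 (7.81%), endothelium and blood 1 of 46 (2.17%), neural 4 of 25 (16%) and epithelium 1 of 32 (3.13%).

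Of the 11 members near cartilage genes, 6 had the EGFP+ order and 1 the EGFP- order, where the shares over all members were 27.7% and 15.5%. The member in an exon of Col2a1, 2.88 kb from a start site, at chr15:97899383-97900083, had a −log10 p of 15.2 in limb EGFP+, 5.37 in limb EGFP-, 11.4 in trunk EGFP+ and 4.07 in trunk EGFP- cells. Col2a1 carries the sorting reporter. The member 34.6 kb from Pth1r, the receptor for parathyroid hormone-related peptide, had 28.01, 13.9, 18.3 and 12.9, and the member in an intron 5.85 kb inside Runx3 had 15.4, 9.15, 10.7 and 8.27. The member near Matn3 had 12.5, 21.9, 23.2 and 15.8 and followed neither order. The member 22.2 kb from Epcam, an adhesion molecule of epithelia, had 12.3, 51.8, 11.5 and 39.3, higher in both EGFP- lists.

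Members gathered in places. Of all stretches of 100 kb, 1922 held 1 member, 488 held 2 and 18 held 6 or more. The densest, at chr2:30500001-30600000 around Cstad, held 9 members among 20 distal regions. Next came chr7:73200001-73300000, with 8 members and no coding gene, which holds the lncRNA gene Chaserr, and all 8 met a noncoding window. Then followed chr15:85500001-85600000 around Mirlet7b and Mirlet7c-2, with 7 members, and chr19:5800001-5900000 around Malat1 and Neat1, with 7 members that all met a noncoding window. The stretch chr1:86300001-86400000 was 1 of 14 that held 6. By chromosome, members were 6.82 to 11.6% of the distal regions of the autosomes and 13.4% of the 701 on X. On Y, 4 of 11 distal regions were members (36.4%).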

How the data were processed

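H3K27ac ChIP-seq was analysed in 4 sorted populations with 1 library each. Per the labels and the methods of the study, the authors sampled equal read numbers per library, trimmed reads with cutadapt 1.18, mapped them to GRCm39 with Bowtie2 2.3.5.1, removed reads of low mapping quality with SAMtools and called peaks with MACS2 2.2.7.1 with a fixed fragment extension of 200 bp. No input control is named in the sources used here, so the background is the library's own. Reads had 50 or 100 bases, without saying for which library. The labels' protocols name 2 sonicators, and the study's methods for the sorted nuclei 1 of them. The peak names of trunk EGFP- carry another replicate number than its label, and the label was followed.

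The deposited files hold, per summit, the fold over background (a ratio), the −log10 of p and of q, and a score, which the authors' caller derives from the −log10 q. Reads at the summit were recovered from fold and −log10 p for 100% of the summits. The authors sampled equal read numbers before mapping, so the reads kept for peak calling need not be equal. The lowest background was 1.49 reads in limb EGFP+, 1.63 in limb EGFP-, 1.6 in trunk EGFP+ and 1.83 in trunk EGFP- cells. Reads at the summits had a median of 24 to 26 per list and were not scaled between libraries.

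Intervals and regions were made as given above with an overlap of at least 1 bp (in Python 3.11.15 with pandas 2.3.3 and numpy 2.4.6, intervals from scipy 1.17.1 and sequence through pysam 0.24.0). Start sites came from GENCODE on GRCm39, where coding start sites are those of coding transcripts. Sequence features were read within 250 bp of the strongest summit. Shares have 95% exact binomial intervals (Clopper-Pearson), which cover counting error only, since regions of 1 library are not replicates. No test was made between populations, whose peak values exist only where a library has a called peak. The procedures were tested on simulated data. Members, gene lists and features were chosen with earlier results of these data known. The members named are the 10 with the highest weakest-list −log10 p, the first 3 of each class, the first 5 with noncoding promoters of each type, the 5 with the widest gap in each direction between the fractions, 3 on each side of the criterion, the 5 densest stretches, and members near genes of the lists, from which those printed were picked with their values known. Alternatives covered the peak threshold, the length of the lists, the overlap, the windows and the consensus. The measure of repeats, the start sites of all transcripts and the use of the summit in place of the region were chosen after seeing the data.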

Additional observations from a re-analysis of the deposited data

Results flagged for a closer look

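Peaks on sequences outside chromosomes 1 to 19, X and Y enter none of the comparisons, and were present in every library although the libraries have no control sample to set them against. They numbered 47 summits in limb EGFP+, 57 in limb EGFP-, 55 in trunk EGFP+ and 63 in trunk EGFP- cells. Most lay on a pair of unplaced sequences, with 16, 22, 24 and 32 summits on the one and 15, 16, 17 and 20 on the other. The highest −log10 p on the latter was 120, 128, 123 and 164, which in trunk EGFP- cells is above the highest member at 143. The mitochondrial genome held 0, 5, 2 and 0. What these sequences contribute was not tested.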

How the results depend on the processing

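On chromosomes 1 to 19 alone there were 3687 members, and the other values recomputed stayed within the counting error. Start sites of protein-coding transcripts alone are identical with the definition used and so are no check. Requiring a −log10 q of 5 or more left 2022 members (11.8% of distal regions), of which 52.6% met a noncoding window, 32.4% lay within 5 kb of a coding start, 21.0% were CpG-rich and 28.6% had no class, with a median width of 890.5 bp and a median distance between the farthest summits of 120.5 bp. With the 20000 strongest intervals per list the same values were 1769, 14.3%, 54.3%, 33.7%, 22.2%, 26.7%, 908 bp and 115 bp. With a fold of at least 4 they were 1434, 7.68%, 54.7%, 27.3%, 22.5%, 27.3%, 877.5 bp and 105 bp, and 6.76% held the CTCF core. With an overlap of at least 50% the members were 8.03% of distal regions, and the shares were 44.1% noncoding, 26.9% within 5 kb, 14.8% CpG-rich and 38.3% without a class, with summits 158 bp apart. With a coding window of 5 kb on each side they were 7.44%, with 40.3% noncoding, 6.996% CpG-rich and 54.5% without a class, a width of 881.5 bp and summits 209 bp apart. With the starts of all transcripts of coding genes they were 8.12%, with 22.0% within 5 kb and 10.5% CpG-rich.

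The noncoding share was 40.3% with lncRNA genes alone, 35.7% with 500 bp on each side of the start, and 38.4% by the strongest summit, which left 44.0% without a class. Within 2 kb beyond the promoter window lay 20.8%. The CTCF core was present in 11.5% with 500 bp on each side of the summit and in 4.52% around the region midpoint, and its shorter form in 15.2%. CpG-rich were 15.3%, 7.66% and, with a ratio of 0.6 and 50% GC, 21.3%, and 38.0% had no class with 500 bp. The cause of these shifts was not tested beyond the stricter lists holding fewer intervals. No paired analysis was possible by replicate number, because each population has only replicate number 1. The fractions of a tissue served as pairs in the order counts alone, and no model of fraction and tissue was fitted. With 1 library per population the spread between replicates is unknown.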
